A study of Mus musculus with 12 samples.

Results

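Aqp1, Atp1b1, Atp1b3 and Slc12a2, 4 genes of water and sodium handling, were followed in primary mouse brain endothelial cells (BECs) that had or lacked the neuropeptide cortistatin. They were picked by symbol from the 32419 genes listed in either of the deposited tables (27321 genes are in both) because water and sodium handling bears on brain oedema, with earlier results of these data known, so their own values are given here as a description, without tests. The BECs came from brains of adult C57BL/6 mice (C57BL/6J by the methods) and were enriched with puromycin, which most other brain cells do not survive. The mice were wild type (Cort+/+) or lacked cortistatin in the whole animal (Cort-/-), and each biological replicate was a pool from 3 mice. Cells were kept for 24 h in normoxia and normoglycemia (NX/NG, 21% O2 and 5.5 mM glucose). For OGD-R (oxygen-glucose deprivation and reoxygenation), other cells spent 4 h at 1% O2 without glucose or serum. Oxygen, glucose and serum were then restored for 20 h, as a model of ischemia and reperfusion in a dish. The labels of these 4 groups name no added cortistatin or other agent. GEO's labels carry a stroke model of the living animal as the disease state, whereas the methods describe cultures exposed in vitro. The tables hold columns for 10 of the 12 listed samples. Both environments have 3 wild-type and 2 knockout libraries, and knockout replicates 3 (NX/NG) and 2 (OGD-R) were not analysed here.

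Aqp1 encodes aquaporin 1, a membrane channel that lets water follow an osmotic gradient. In the brain it is best known from the choroid plexus epithelium, which secretes cerebrospinal fluid, whereas most endothelium of the blood-brain barrier is known for having little of it. The Na,K-ATPase, or sodium pump, moves sodium out of the cell and potassium in, and consists of a catalytic alpha subunit and a glycosylated beta subunit that brings the alpha subunit to the plasma membrane. Atp1b1 and Atp1b3 encode the beta 1 and beta 3 subunits. Slc12a2 encodes NKCC1, a cotransporter that carries sodium, potassium and chloride into the cell together and is studied at the blood-brain barrier for its part in sodium entry after ischemia.

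The level of each gene was read as RPKM, reads scaled to gene length and to the size of the library, which allows genes to be compared with each other. Each library held between 12386048 and 12390428 reads on genes, as recovered from the RPKM. These totals were nearly equal and lay below the mean number of paired-end reads that the paper reports. The reason was not tested, and they may not be the depth of sequencing. The share of ribosomal RNA was 7.64% to 15.8% for 8 libraries and far lower for a pair of OGD-R libraries, namely wild-type replicate 1 (0.0775%) and knockout replicate 3 (0.0951%). The members' differences that use this pair are given with and without it. Reads on Cort were 0 in the 4 Cort-/- libraries and at most 2 in any Cort+/+ library, too few to check the genotype labels. The 10 endothelial markers were all detected, with sums from 1198 to 1718 RPKM. The 6 smooth muscle markers summed to 1055 to 1815 RPKM in the same libraries, mostly from Acta2 (630 to 1080 RPKM) and Tagln (358 to 679 RPKM). Myh11 (0.506 to 2.11 RPKM) and Des (0.0863 to 0.369 RPKM) were low, with Smtn and Cnn1 in between. Which cells these transcripts came from was not tested. In such bulk libraries, fewer cells of a type and less RNA per cell cannot be told apart.

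Promoter windows, running from 250 bases before to 50 bases after the RefSeq start on GRCm38.p6, are shown for Aqp1 and Atp1b1, which had lower levels in Cort-/- cells under NX/NG, and for Atp1b3, whose level differed little. Capitals mark matches, on either strand, to CACCC (bound by KLF factors, which include regulators of endothelial genes) and to GGGCGG (the GC box bound by SP1).
Aqp1, chr6:55336049-55336348, plus strand: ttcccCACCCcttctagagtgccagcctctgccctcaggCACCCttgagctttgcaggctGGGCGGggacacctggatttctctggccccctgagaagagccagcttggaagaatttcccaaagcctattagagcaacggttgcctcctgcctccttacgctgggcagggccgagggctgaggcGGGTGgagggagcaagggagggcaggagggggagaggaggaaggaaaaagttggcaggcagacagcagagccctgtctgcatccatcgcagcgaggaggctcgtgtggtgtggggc
Atp1b1, chr1:164458306-164458605, minus strand: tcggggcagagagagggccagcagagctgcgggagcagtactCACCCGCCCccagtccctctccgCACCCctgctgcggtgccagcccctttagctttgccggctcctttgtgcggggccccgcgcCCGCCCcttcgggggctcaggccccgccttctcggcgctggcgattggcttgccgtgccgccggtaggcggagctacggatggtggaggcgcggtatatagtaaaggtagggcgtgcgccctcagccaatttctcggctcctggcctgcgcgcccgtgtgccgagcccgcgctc
Atp1b3, chr9:96364382-96364681, minus strand: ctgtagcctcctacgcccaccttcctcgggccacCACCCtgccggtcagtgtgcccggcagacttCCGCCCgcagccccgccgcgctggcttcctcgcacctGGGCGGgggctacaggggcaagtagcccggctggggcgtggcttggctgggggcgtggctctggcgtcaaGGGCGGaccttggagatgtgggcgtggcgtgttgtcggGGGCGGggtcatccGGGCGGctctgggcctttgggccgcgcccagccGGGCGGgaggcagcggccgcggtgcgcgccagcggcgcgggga

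The Aqp1 window held 3 CACCC matches and 1 GC box and had 62.7% G and C. It ends before the start of Aqp1 in GENCODE vM21, so the annotations place the start of this gene at different bases. The Atp1b1 window held 2 matches of each motif, of which CACCC at position -208 and the GC box at -205, counted from the RefSeq start, overlap, and had 71.0% G and C. In the Atp1b3 window there were 1 CACCC match, 6 GC boxes and 76.0% G and C. Among all 32851 promoter windows of the same length, 57.5% held CACCC, 35.7% held the GC box, and the median G and C content was 52.7%. Neither TATAAA, the hypoxia-response core ACGTG, the NFAT5 core TGGAAA nor the AP-1 motif TGANTCA was found on either strand of these 3 windows, and these motifs occur in 13.6%, 19.6%, 21.4% and 7.81% of all windows. Another RefSeq window of Atp1b3, chr9:96363666-96363965, held 3 ACGTG matches, of which 2 overlap,, 1 TGGAAA match and 1 CACCC match. Such matches describe letters in the sequence and not binding.

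By position, in the GENCODE vM21 annotation of mouse genome build GRCm38, Aqp1 spans bases 55336432 to 55348555 of chromosome 6 on the plus strand, Atp1b1 spans 164437109 to 164458355 of chromosome 1 on the minus strand, Atp1b3 spans 96332655 to 96364442 of chromosome 9 on the minus strand, and Slc12a2 spans 57878678 to 57946821 of chromosome 18 on the plus strand. All 4 are protein-coding, and the gene lengths used in the tables (2627, 3081, 2389 and 10920 bases) equal the summed exons of this annotation. The 3′ end of Atp1b1 overlaps Nme7 on the opposite strand, which had a mean of 2.73 RPKM, so reads there can be told apart only where strand was used in counting. Of the words of 40 bases in Atp1b3, 12.8% also occur in Gm1848, so its count could hold reads of that gene, whereas the other members shared none of theirs with another gene.

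The 4 genes lay at very different levels. Atp1b3 was the highest, at 54.3 to 68.6 RPKM over the 10 libraries, above 96.8% to 97.5% of the genes with a read. Slc12a2 lay at 11.3 to 17.7 RPKM, above 81.8% to 88.9% of these genes. Atp1b1 ranged from 5.62 to 13.7 RPKM. Aqp1 had the widest relative range, from 2.00 to 10.04 RPKM, which placed it above 52.3% of expressed genes in 1 Cort-/- NX/NG library and above 80.3% in 1 Cort-/- OGD-R library. Behind these values stood 65 to 360 reads for Aqp1, 214 to 554 for Atp1b1, 1681 to 2047 for Atp1b3 and 1456 to 2452 for Slc12a2, so counting error was largest for Aqp1.

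**Figure D1:**
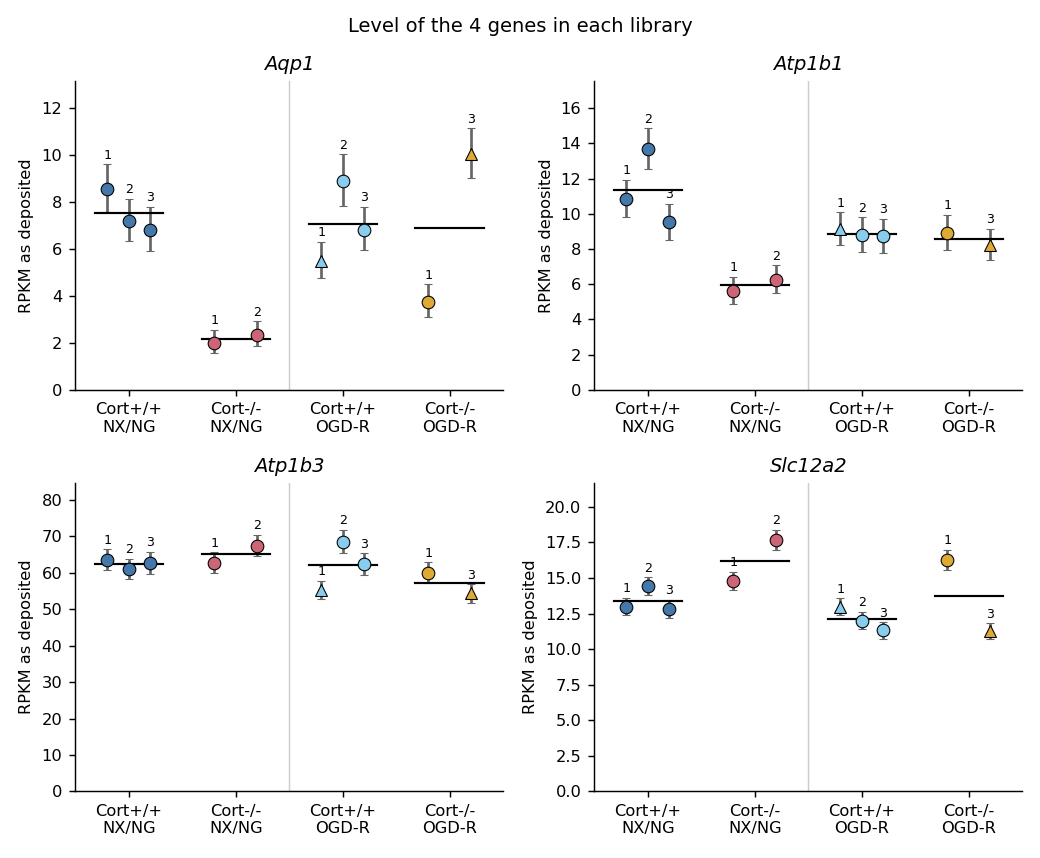
RPKM of Aqp1, Atp1b1, Atp1b3 and Slc12a2 (vertical axes, from 0) in the 10 libraries by genotype and environment. Numbers are replicate numbers, vertical bars are 95% Poisson intervals of the reads (counting error only), horizontal lines are group means and triangles are the libraries low in ribosomal RNA; Aqp1 and Atp1b1 are lowest in both Cort-/- NX/NG libraries, and the Cort-/- OGD-R libraries hold 3.73 and 10.04 RPKM of Aqp1.

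To ask whether uninjured cells without cortistatin differ from wild type, Cort-/- and Cort+/+ BECs were compared under NX/NG. Aqp1 was at 8.54, 7.18 and 6.80 RPKM in Cort+/+ replicates 1 to 3 and at 2.00 and 2.34 RPKM in Cort-/- replicates 1 and 2. Both Cort-/- libraries lay below all 3 Cort+/+ libraries. The 95% Poisson interval was 1.85 to 2.92 RPKM for the highest Cort-/- library and 5.90 to 7.79 RPKM for the lowest Cort+/+ library. These intervals cover counting error only and not the spread between cultures. Mean levels were 7.51 ± 0.914 (SD, n = 3) and 2.17 ± 0.235 RPKM (SD, n = 2), a log2 difference of -1.74 (SE 0.13) in limma on log2(RPKM + 0.1). With all 4 groups in one fit the difference was also -1.74, with a larger SE of 0.36.

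Atp1b1, the more widely known of these beta subunits, was at 10.8, 13.7 and 9.51 RPKM in Cort+/+ NX/NG libraries and at 5.62 and 6.23 RPKM in Cort-/- NX/NG libraries. Both Cort-/- libraries lay below all 3 Cort+/+ libraries, which differed more among themselves than the Cort-/- libraries did. The means were 11.3 ± 2.13 (SD, n = 3) and 5.93 ± 0.429 RPKM (SD, n = 2), and the log2 difference was -0.91 (SE 0.17). It was -0.77 without Cort+/+ replicate 2, the library with the highest Atp1b1, and -1.03 without Cort+/+ replicate 3.

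Atp1b3, the other beta subunit detected in quantity, was at 63.5, 61.0 and 62.7 RPKM in Cort+/+ and at 62.7 and 67.4 RPKM in Cort-/- cells under NX/NG. Its ranges overlapped, and the log2 difference was 0.06 (SE 0.05), which was 0.11 without Cort-/- replicate 1 and 0.00604 without replicate 2. Slc12a2 was at 13.0, 14.4 and 12.8 RPKM in Cort+/+ and at 14.8 and 17.7 RPKM in Cort-/- cells. Here both Cort-/- libraries were above the Cort+/+ range, by a narrow margin for replicate 1, and the log2 difference was 0.27 (SE 0.10). Without Cort-/- replicate 2 this difference was 0.14, and without replicate 1 it was 0.40. Thus the groups did not overlap for 3 of the 4 members, lower in Cort-/- for Aqp1 and Atp1b1 and higher for Slc12a2, where 32.9% of 13722 genes averaging 1 RPKM or more did so (16.6% lower, 16.4% higher).

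**Figure D2:**
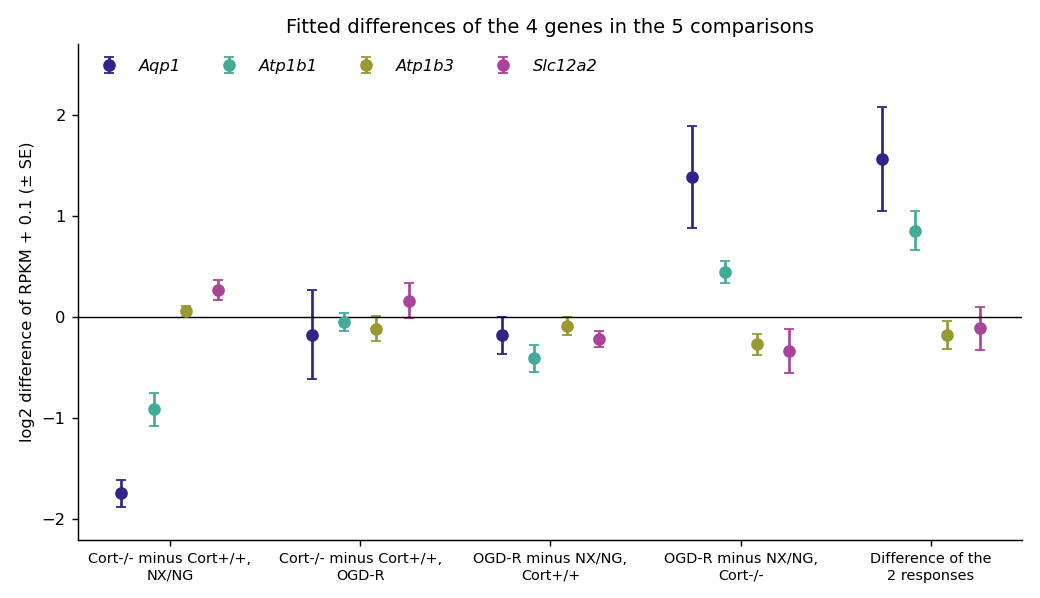
Log2 differences (points) with their SE (bars) of the 4 members in 5 comparisons, fitted with limma on log2(RPKM + 0.1). Aqp1 and Atp1b1 sit at -1.74 and -0.91 for genotype under NX/NG and near 0 for genotype under OGD-R, where the bar of Aqp1 spans an SE of 0.44.

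Because Atp1b3 differed little while Atp1b1 was lower, the make-up of the beta subunit transcripts differed between genotypes. Atp1b1 made up 14.5%, 18.3% and 13.1% of the summed RPKM of Atp1b1, Atp1b2 and Atp1b3 in Cort+/+ NX/NG libraries and 8.23% and 8.45% in Cort-/- NX/NG libraries. Under OGD-R this share was 14.1%, 11.3% and 12.2% in Cort+/+ and 12.9% and 13.1% in Cort-/- libraries. The Cort-/- NX/NG libraries thus held the lowest shares of the 10. Atp1b3 exceeded Atp1b1 by 5.64 ± 1.08 times (SD, n = 3) in Cort+/+ NX/NG, 10.98 ± 0.229 times (SD, n = 2) in Cort-/- NX/NG, 7.01 ± 0.891 times (SD, n = 3) in Cort+/+ OGD-R and 6.67 ± 0.0930 times (SD, n = 2) in Cort-/- OGD-R cells. The sum over the 3 beta genes moved less, with means of 74.0 ± 1.41 (SD, n = 3) and 71.1 ± 3.80 RPKM (SD, n = 2) under NX/NG in Cort+/+ and Cort-/- cells.

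**Figure D3:**
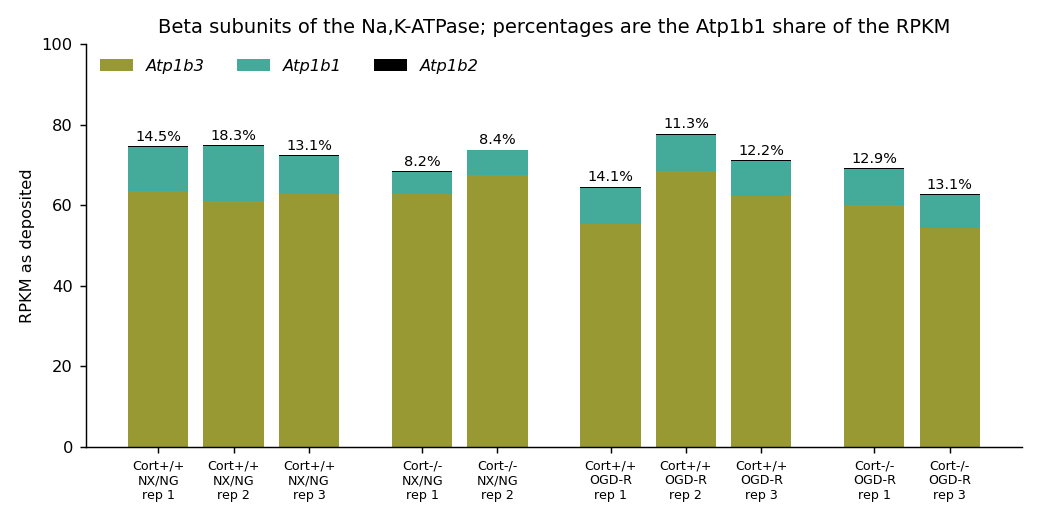
Stacked RPKM of the beta subunit genes Atp1b3, Atp1b1 and Atp1b2 (vertical axis, from 0) in each library, with the Atp1b1 share of the stack printed above it. The share is 8.2% and 8.4% in the Cort-/- NX/NG libraries and 11.3% to 18.3% elsewhere, while Atp1b2 is barely visible.

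Under OGD-R the same genotypes were compared in injured cells. Aqp1 was at 5.49, 8.88 and 6.82 RPKM in Cort+/+ replicates 1 to 3 and at 3.73 and 10.04 RPKM in Cort-/- replicates 1 and 3. A Cort-/- library was thus the lowest of the 5 and the other the highest, and the higher is the library low in ribosomal RNA. The log2 difference was -0.17 (SE 0.44), and it was 0.53 without Cort-/- replicate 1, -0.87 without Cort-/- replicate 3, and -1.04 (SE 0.25) without both libraries low in ribosomal RNA. Neither the sign nor the size of the Aqp1 difference was therefore fixed by these libraries.

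Atp1b1 was at 9.12, 8.77 and 8.72 RPKM in Cort+/+ OGD-R libraries and at 8.91 and 8.23 RPKM in Cort-/- OGD-R libraries. These values overlapped and lay within a narrow band, with a log2 difference of -0.05 (SE 0.09), which was 0.027 without both libraries low in ribosomal RNA. Atp1b3 was at 55.2, 68.6 and 62.3 RPKM in Cort+/+ and at 60.0 and 54.3 RPKM in Cort-/- cells. The ranges overlapped, and the log2 difference of -0.11 (SE 0.13) was -0.12 without both libraries low in ribosomal RNA and ran from -0.20 without Cort+/+ replicate 1 to -0.04 without Cort+/+ replicate 2 as each library was left out. Slc12a2 was at 13.0, 12.01 and 11.3 RPKM in Cort+/+ and at 16.3 and 11.3 RPKM in Cort-/- cells. Its Cort-/- libraries fell on either side of the Cort+/+ range, and the log2 difference of 0.16 (SE 0.17) was -0.10 without Cort-/- replicate 1, 0.43 without Cort-/- replicate 3 and 0.48 without both libraries low in ribosomal RNA. None of the 4 members was without overlap between genotypes, against 16.1% of 13833 genes.

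For the step from NX/NG to OGD-R the reads of both tables were scaled together, since the authors had scaled the environments apart, and levels below are on this joint RPKM scale. In Cort+/+ cells Atp1b1 was at 11.1, 14.0 and 9.76 joint RPKM under NX/NG and at 8.89, 8.55 and 8.496 joint RPKM after OGD-R. The OGD-R libraries were all below the NX/NG libraries, and the log2 difference was -0.41 (SE 0.13). It was -0.43 without OGD-R replicate 1, the library low in ribosomal RNA, and -0.27 without NX/NG replicate 2, the library with the highest Atp1b1. Slc12a2 went from 13.3, 14.8 and 13.2 to 12.6, 11.7 and 11.02 joint RPKM, also without overlap, with a log2 difference of -0.22 (SE 0.08), or -0.27 without OGD-R replicate 1. Aqp1 and Atp1b3 overlapped between environments in Cort+/+ cells, with log2 differences of -0.18 (SE 0.18) and -0.09 (SE 0.09). Without OGD-R replicate 1 they were -0.01 and -0.005, and without OGD-R replicate 2 they were -0.36 and -0.16. Thus 2 of 4 members did not overlap, both lower after OGD-R, where 12.9% of 13804 genes did not (5.18% lower, 7.67% higher).

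In Cort-/- cells Aqp1 and Atp1b1 were higher after OGD-R, and for Atp1b1 the libraries were thus separated in opposite directions in the genotypes. Aqp1 went from 2.06 and 2.41 joint RPKM under NX/NG to 3.64 and 9.78 joint RPKM after OGD-R. Both OGD-R libraries were higher, but they differed widely from each other, and the log2 difference of 1.39 (SE 0.51) was 2.09 without OGD-R replicate 1 and 0.68 without OGD-R replicate 3. Atp1b1 went from 5.78 and 6.42 to 8.68 and 8.02 joint RPKM, a log2 difference of 0.45 (SE 0.11), which was 0.50 without OGD-R replicate 3. Atp1b3 was lower after OGD-R, at 58.5 and 52.9 against 64.4 and 69.4 joint RPKM, with a log2 difference of -0.27 (SE 0.10) that was -0.19 without OGD-R replicate 3, and Slc12a2 overlapped, with -0.33 (SE 0.22) over both libraries, -0.07 without OGD-R replicate 3 and -0.59 without OGD-R replicate 1. Groups did not overlap for 3 of 4 members, where 34.2% of 13730 genes did not (18.1% lower, 16.1% higher).

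The difference between the genotypes' responses was 1.56 (SE 0.52) for Aqp1, 0.85 (SE 0.19) for Atp1b1, -0.18 (SE 0.14) for Atp1b3 and -0.11 (SE 0.21) for Slc12a2 on the log2 scale. That of Aqp1 was 2.27 without Cort-/- OGD-R replicate 1, 0.86 without Cort-/- OGD-R replicate 3 and 0.70 without both libraries low in ribosomal RNA, whereas that of Atp1b1 was 0.93 without both. Without both, that of Atp1b3 was -0.19 and that of Slc12a2 was 0.20, and leaving out each library in turn gave -0.26 to -0.10 for Atp1b3 and -0.37 to 0.15 for Slc12a2. The step within each genotype and the genotype contrasts share libraries, so these values are no independent support for each other. In order of joint RPKM, mean Aqp1 was 7.69 in Cort+/+ NX/NG, 6.88 in Cort+/+ OGD-R, 6.71 in Cort-/- OGD-R and 2.23 in Cort-/- NX/NG cells, and only the last step in this order was without overlap. For Atp1b1 the same order held, at 11.6, 8.64, 8.35 and 6.10 joint RPKM, and only the middle step overlapped. Atp1b3 ran from 66.9 in Cort-/- NX/NG over 63.9 and 60.5 in Cort+/+ NX/NG and OGD-R to 55.7 joint RPKM in Cort-/- OGD-R cells, and all neighbours overlapped. Slc12a2 was highest in Cort-/- NX/NG cells at 16.7 joint RPKM, without overlap with Cort+/+ NX/NG cells at 13.7, while the lower steps to 13.4 in Cort-/- OGD-R and 11.8 in Cort+/+ OGD-R cells overlapped.

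Markers of some other cell types, but not of all, were lowest in the same group as Aqp1 and Atp1b1. Smooth muscle sums overlapped between genotypes under NX/NG, at 1501 to 1815 RPKM in Cort+/+ and 1357 to 1613 RPKM in Cort-/- libraries. Under OGD-R they were 1388 to 1741 and 1055 to 1531 RPKM. Summed over 8 pericyte markers, all in the tables, RPKM was 19.4 to 24.4 in Cort+/+ NX/NG, 9.45 to 12.1 in Cort-/- NX/NG, 18.4 to 24.4 in Cort+/+ OGD-R and 16.5 to 20.995 in Cort-/- OGD-R libraries. Over 8 fibroblast and leptomeningeal markers the sums were 193 to 279, 83.6 to 121, 231 to 342 and 200 to 252 RPKM in the same order of groups. Both sums were lowest in Cort-/- NX/NG libraries, as were Aqp1 and Atp1b1, and their part in the differences of these genes was not tested. Pdgfra, on the fibroblast list, went the other way under NX/NG. It was at 0.485 and 0.706 RPKM in Cort-/- and at 0.319 to 0.366 RPKM in Cort+/+ libraries. Among defining markers, Abcc9, Kcnj8 and Higd1b of pericytes and Slc6a13 and Dpt of fibroblasts were at or near 0 in every library, and most of the sums came from Pdgfrb, Cspg4 and the collagens.

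**Figure D4:**
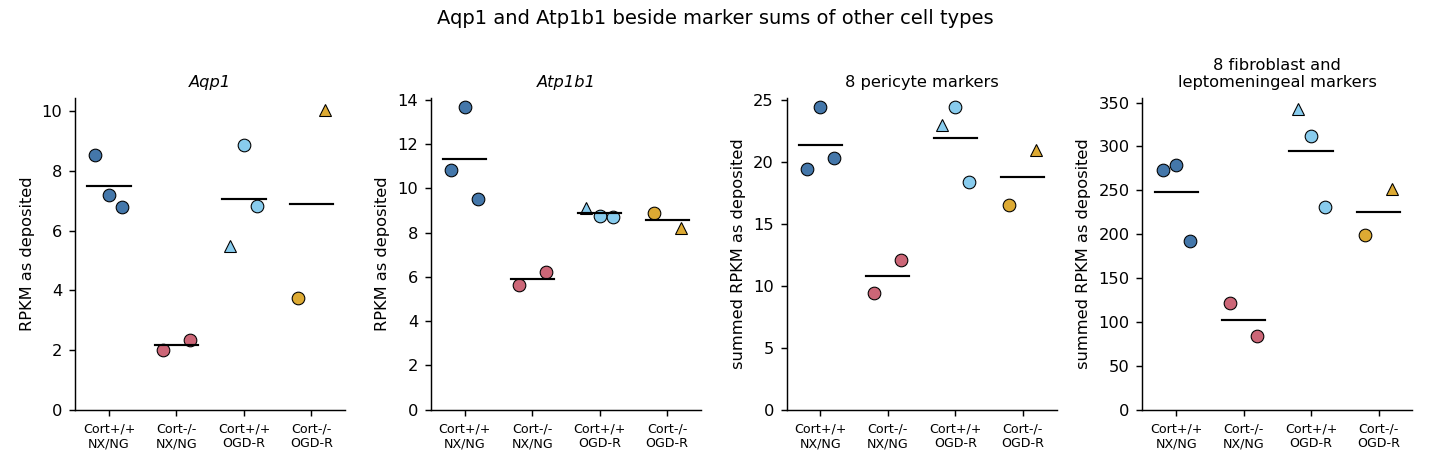
RPKM of Aqp1 and Atp1b1 and summed RPKM of 8 pericyte and 8 fibroblast and leptomeningeal markers (vertical axes, from 0) in the 10 libraries, with group means as lines and the libraries low in ribosomal RNA as triangles. In all 4 panels the Cort-/- NX/NG libraries are the lowest, and pericyte sums there are 9.45 and 12.1 RPKM.

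The endothelial sums were 1198 to 1508 RPKM in Cort+/+ NX/NG and 1548 to 1690 RPKM in Cort-/- NX/NG libraries, the opposite order to Aqp1, and 1294 to 1419 and 1410 to 1718 RPKM under OGD-R. The astrocyte sums, mostly Gja1 (7.77 to 18.6 RPKM) with Aldh1l1 next (1.19 to 4.002 RPKM), were 15.2 to 19.9 RPKM in Cort+/+ NX/NG, 10.5 to 12.4 in Cort-/- NX/NG, 16.9 to 17.8 in Cort+/+ OGD-R and 13.2 to 14.0 in Cort-/- OGD-R libraries. Under NX/NG these 2 markers went opposite ways. Gja1 was at 13.5 to 18.6 RPKM in Cort+/+ and at 10.4 and 7.77 RPKM in Cort-/- libraries. Aldh1l1 was at 1.19 to 1.52 RPKM in Cort+/+ and at 1.94 and 2.58 RPKM in Cort-/- libraries. Aqp4, the astrocyte water channel, was at or near 0 where it was listed. For the choroid plexus, where Aqp1 is abundant, the sums were 13.6 to 19.9 RPKM over all libraries and came almost wholly from Clic6, while Kl was at or near 0 and Ttr at 0.212 to 1.17 RPKM. Erythroid markers, of a cell type rich in aquaporin 1, summed to at most 0.636 RPKM, and microglial and macrophage markers to at most 2.06 RPKM. Sums of 7 other epithelial markers stood at 71.3 RPKM in Cort+/+ NX/NG replicate 2, which had the highest Atp1b1, and at 49.6 RPKM in Cort-/- OGD-R replicate 1, which had the lower Aqp1 of its group, against 10.8 to 22.3 RPKM elsewhere.

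The genes whose profile over the 10 libraries was nearest to each member were found by the root mean square difference of centred log2 values, over 13788 genes, as a description. For Aqp1 these were Tmem119 (0.249), Sod3 (0.251), which encodes an extracellular superoxide dismutase, and Dkk3 (0.305), a secreted member of the Dickkopf family. Tmem119 had means of 10.9, 3.47, 12.3 and 8.97 joint RPKM in Cort+/+ NX/NG, Cort-/- NX/NG, Cort+/+ OGD-R and Cort-/- OGD-R cells. Those of Atp1b1 were Setbp1 (0.154), Adamts12 (0.159), a secreted metalloproteinase, and Gm47204 (0.173). For Atp1b3 they were Ptp4a2 (0.0401), Ppp2ca (0.0446), the catalytic subunit of protein phosphatase 2A, and 4933434E20Rik (0.0453), and for Slc12a2 Gm26827 (0.0861), Nxpe4 (0.0995) and Gm38331 (0.104). No member was among the nearest genes named for another. Atp1b1 ranked 395 of the 13788 genes in nearness to Aqp1, whereas Aqp1 ranked 12344 in nearness to Atp1b1. The distance was the same both ways (0.558), but the profile of Aqp1 varied more (root mean square 0.739) than that of Atp1b1 (0.339). The profiles were not scaled, so these ranks depend on the size of the changes as well as on their shape.

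The 4 members were set in a list of 80 other genes of water and sodium transport, of which 77 were in a table and 30 had a mean of at least 1 RPKM. Aqp1 was the only aquaporin at this level. Of the other 11 listed, 9 were in a table, with a highest mean of 0.331 RPKM for Aqp5. Aqp1 made up 93.5% ± 0.404 (SD, n = 3) of the aquaporin RPKM in Cort+/+ NX/NG, 87.2% ± 2.56 (SD, n = 2) in Cort-/- NX/NG, 92.5% ± 1.81 (SD, n = 3) in Cort+/+ OGD-R and 84.4% ± 12.2 (SD, n = 2) in Cort-/- OGD-R cells. Among the pump's regulators Fxyd5 had a mean of 19.4 RPKM and Fxyd6 of 1.92 RPKM, the FXYD proteins being small modulators of the pump. Next to Slc12a2 stood the potassium-chloride cotransporters Slc12a4 (mean 23.9 RPKM) and Slc12a7 (6.69), which carry the ions out, and the kinases Wnk1 (25.4), Oxsr1 (11.7) and Stk39 (4.95), which regulate these cotransporters.

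Under NX/NG, 0 of the 72 tested pathway genes passed an FDR of 0.05 in limma or in limma-voom on the recovered reads, against 0 and 0.414% of 29965 genes. An unadjusted p under 0.05 was found for 7 of the 72, 4 higher and 3 lower in Cort-/- cells, and for 8.39% of all genes (3.56% higher, 4.82% lower). Among those higher were Lrrc8b (log2 difference 0.38) and Lrrc8c (0.36), both subunits of the volume-regulated anion channel, and Fxyd6 (0.96). Stk39, the SPAK kinase that activates NKCC1, was lower (-0.28), and these 4 genes had limma adjusted p from 0.522 to 0.565. Slc4a4 (-1.05) and Wnk4 (-0.89) were also lower but had means under 1 RPKM, and they are named after their values were seen. By list, the 7 included 2 of 10 cell volume and osmolyte genes and 2 of 6 WNK and SPAK kinases, with 0 of 8 aquaporins, 0 of 8 sodium-proton exchangers, 0 of 4 sodium-calcium exchangers, 0 of 9 sodium entry channels and 0 of 4 regulators. The count of 7 was 1 without Cort+/+ replicate 1 and 2 without Cort+/+ replicate 2 or Cort-/- replicate 2. The median log2 difference was -0.06 over the pathway genes and -0.01 over all genes. Among genes averaging at least 1 RPKM it was -0.004 over 29 pathway genes and 0.009 over all genes.

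**Figure D5:**
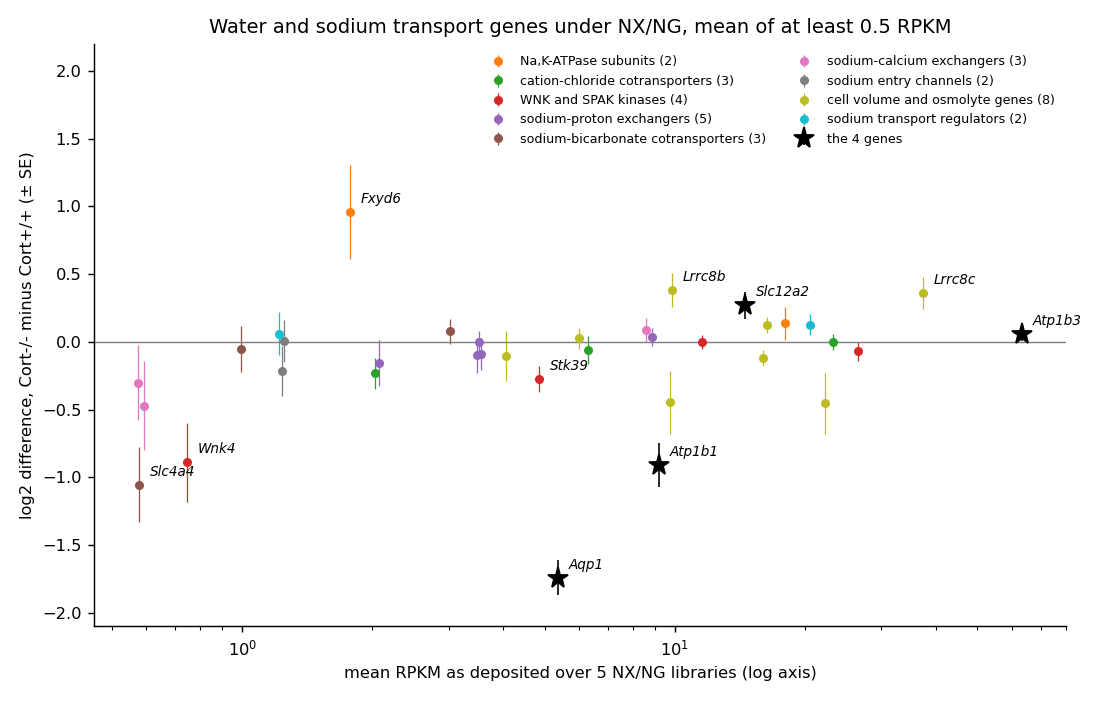
Log2 difference between Cort-/- and Cort+/+ cells under NX/NG (vertical axis, bars are SE) against mean RPKM over 5 libraries (log axis) for 32 pathway genes averaging 0.5 RPKM or more, coloured by list, and for the 4 members (stars). Named points are the members and those pathway genes whose unadjusted p was under 0.05, and Aqp1 lies lowest at -1.74.

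Under OGD-R, 0 of 75 pathway genes passed the FDR in limma or limma-voom, against 0 and 0.0168% of 29775 genes. At an unadjusted p under 0.05 there was 1, Fxyd5, higher by 0.31 (limma adjusted p = 0.978), where 3.42% of all genes had such a p. In Cort+/+ cells 0 of 69 passed the FDR between environments by either tool, against 0.0332% of 27075 genes in limma and 0.00369% in limma-voom, and 2 had an unadjusted p under 0.05, where 5.48% did. These were Sgk1, a kinase that promotes sodium uptake (0.24), and Slc5a3, the sodium and myo-inositol cotransporter (-0.43), both with a limma adjusted p of 0.881. In Cort-/- cells 0 of 69 passed the FDR by either tool and 1 had an unadjusted p under 0.05 (4.08% of 26523 genes), which was Aqp5 at a mean of 0.389 RPKM, named after its value was seen. For the difference of the responses, 0 of 70 passed the FDR by either tool (0.011% of 27321 genes in limma, 0 in limma-voom), and 0 had an unadjusted p under 0.05, where 2.85% of all genes did.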

How the data were processed

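RNA-seq of BECs from 4 groups was used, with 10 libraries in 2 tables. The authors prepared stranded mRNA libraries and deposited RPKM values, scaled within each table. Labels and methods name different kits, inputs and read lengths. The aligner, build and annotation are not given in the sources used here; the submitters' processing notes name edgeR without a version. Columns of the authors' own comparisons (fold changes, p-values, FDR) and expression categories were not used. RPKM times length was a whole number of reads, within 0.05, for at least 99.9788% of values in every library, so reads were recovered. The labels call replicates independent; whether cultures with the same number share mice across environments is not stated.

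Genes were fitted with limma 3.58.1 (trend) in R 4.3.3 on log2(RPKM + 0.1), with Benjamini-Hochberg adjustment over all genes with a value above 0 and only the compared groups in the fit. Comparisons between environments used the recovered reads scaled jointly by a trimmed mean of M values. The fitting code was run on simulated reads with known changes. These reads had the same spread for every gene and no libraries low in ribosomal RNA, so they do not show how the fits perform on these data. Groups without overlap were counted among genes averaging 1 RPKM or more. Members, gene lists and tests were chosen with earlier results of these data known. Pathway genes named are those past the FDR, or up to 5 with the lowest unadjusted p under 0.05 and a mean of at least 1 RPKM, plus the highest of each list; some items are not reported here. Poisson intervals cover counting error only. Alternatives were a pseudocount of 1, a filter at 1 RPKM in at least 2 libraries, quantile normalization, a replicate block, limma-voom, all groups in one fit, a term for ribosomal RNA, leaving out each library and, chosen after seeing the data, leaving out both libraries low in ribosomal RNA.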

Additional observations from a re-analysis of the deposited data

Results flagged for a closer look

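Atp1b1 went in opposite directions after OGD-R in the 2 genotypes, with every OGD-R library below every NX/NG library in Cort+/+ cells (a log2 difference of -0.41, or -0.27 without NX/NG replicate 2) and above in Cort-/- cells (0.45). The difference between these responses was 0.85 on the log2 scale (0.71 without Cort+/+ NX/NG replicate 2), and it was not tested, since the gene was chosen with results of these data known. Of 13789 genes averaging 1 RPKM or more, 67 (0.486%) had such opposite responses without overlap.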

How the results depend on the processing

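The 20 member differences had 256 alternative values, of which 246 kept the direction and 238 moved by less than 1 SD of the replicates. Some of these values coincide, so they are not independent checks. For example, the Aqp1 difference under NX/NG was -1.81 both with the replicate block and without Cort+/+ replicate 3. With a pseudocount of 1, the Aqp1 difference under NX/NG was -1.42. Without both libraries low in ribosomal RNA, the genotype differences under OGD-R were -1.04 for Aqp1, 0.027 for Atp1b1 and 0.48 for Slc12a2, and the differences of the responses were 0.70 for Aqp1 and 0.20 for Slc12a2. Leaving out each library in turn gave 0.00604 to 0.11 for Atp1b3 under NX/NG. Under OGD-R it gave -0.87 to 0.53 for Aqp1, -0.11 to 0.00674 for Atp1b1, -0.20 to -0.04 for Atp1b3 and -0.10 to 0.43 for Slc12a2. For the differences of the responses it gave 0.86 to 2.27 for Aqp1, -0.26 to -0.10 for Atp1b3 and -0.37 to 0.15 for Slc12a2. The cause of these shifts was not tested. The count of pathway genes at the FDR was 0 in every alternative that kept more than 1 library in each group. Calls at the FDR from fits that left 1 library in a group are not given. At an unadjusted p under 0.05, the counts of pathway genes over all alternatives ran from 1 to 12 (7 as reported) and from 0 to 7 (1 as reported) for genotype under NX/NG and OGD-R, from 0 to 4 (2 as reported) and from 0 to 10 (1 as reported) for the step to OGD-R in Cort+/+ and Cort-/- cells, and from 0 to 2 (0 as reported) for the difference of the responses. Where an arm kept 1 library, it was assumed to vary like the other group.

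Of 8 pairs of libraries with the same replicate number, 1 had deviations from the group mean correlated above 0.1 (range -0.53 to 0.19). Among 17 pairs with different numbers there were 6. With 2 libraries in each Cort-/- group, their deviations mirror each other. These correlations therefore cannot settle whether samples with the same number are paired. With the replicate number as a block, Aqp1 differed by -1.81 under NX/NG and by 0.004 under OGD-R, Atp1b1 by -1.03 and -0.06, and 0 pathway genes passed the FDR in any comparison fitted. The step to OGD-R in Cort-/- cells shares only replicate 1 and could not be blocked.

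With 2 libraries in each Cort-/- group, the differences rest on few samples. Counting error is larger for Aqp1 (65 to 360 reads) than for the other members, and under OGD-R its Cort-/- libraries lie further apart than their Poisson intervals.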
